A study of Mus musculus with 6 samples.

Results

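The genes described here encode the factors that start and extend protein chains on cytosolic ribosomes: every autosomal, non-pseudogene mouse gene whose symbol begins with Eif and a digit from 1 to 6, or with Eef1 or Eef2, without the Eif2ak kinases and Eef2k. The rule took 63 genes of a RefSeq annotation. Of these, 62 were among the 19949 genes with counts, 59 had enough counts to be tested, and Eif4a3l1 was not analysed here. The libraries came from washed colon pieces, scraped on the luminal side to take off content and mucus, of BALB/c mice aged 6 to 8 weeks (the protocol names the proximal part of the gut without a further position): 3 libraries from mice labelled STAT6-/- and 3 from WT mice. STAT6 is the transcription factor of interleukin-4 and interleukin-13 signals. Mice of both genotypes had drunk 3% dextran sulfate sodium (DSS), which injures the colonic epithelium, for 3 days. How the Stat6 allele was made, and whether the 3 samples of a genotype are separate animals, is not given in the sources used here, so each p-value refers to variation among the samples, part of which may be technical.

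Translation begins when eIF4F, made of the cap-binding protein eIF4E, the scaffold eIF4G and the RNA helicase eIF4A, brings the small ribosomal subunit to an mRNA. That subunit already carries eIF3, the largest initiation complex, eIF1, eIF1A and eIF5, and the ternary complex in which eIF2 holds the initiator tRNA. After the start codon is found, eIF5B joins the large subunit, eIF2B recharges eIF2 with GTP, and eEF1 and eEF2 take over elongation. The fast-renewing colonic epithelium is a tissue with a high demand for protein synthesis.

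Levels in CPM (expected counts scaled to the same library total, with TMM normalization) are given in the order of replicates 1, 2 and 3 of a genotype, and the libraries held 17122315 to 19555450 expected counts. Stat6 stood at 47.2 ± 7.74 CPM in STAT6-/- and 94.8 ± 8.11 CPM in WT (SD, n = 3 each), a log2 fold change of -1.01 ± 0.16 (SE), with an adjusted p of 0.0134 by the quasi-likelihood test of edgeR, corrected by Benjamini-Hochberg like every adjusted p that follows. Transcript was thus still counted in the STAT6-/- libraries, and since the altered part of the gene is not known here, this level alone does not check the label. Xist, transcribed from the inactive X chromosome of females, stood at 0.793, 0.992 and 0.265 CPM in the STAT6-/- libraries and 509, 352 and 545 CPM in the WT libraries, and the Y-linked gene Ddx3y at 54.8, 50.9 and 59.5 CPM in the STAT6-/- libraries and 0.0591, 0.124 and 0.0567 CPM in the WT libraries. The STAT6-/- libraries therefore look male and the WT libraries female, so genotype and sex cannot be told apart in any comparison below. STAT6-/- replicate 2 stood apart: over tested genes its Spearman correlation was 0.953 with WT replicate 1, and 0.946 and 0.94 with STAT6-/- replicates 1 and 3. Its 4 macrophage markers summed to 180.1 CPM, beside 908 and 576 CPM in STAT6-/- replicates 1 and 3 and 221 to 427 CPM in WT. The RNA levels of some cell type markers also differed. The summed level of 5 epithelial markers ran from 10550 to 16760 CPM in STAT6-/- and from 6559 to 9344 CPM in WT, with 2 of the 5 higher by the test. The sum of 4 smooth muscle markers ran from 1774 to 4222 CPM in STAT6-/- and from 7585 to 9189 CPM in WT, with all 4 lower, and that of 4 proliferation markers from 250 to 611 CPM in STAT6-/- and from 130 to 237 CPM in WT, with 2 higher. All 3 tested fat markers were lower, with sums from 7.51 to 20.8 CPM in STAT6-/- and from 40.2 to 232 CPM in WT. Higher were 1 of 3 T cell, 1 of 4 neutrophil and 1 of 4 endothelial markers. The T cell sums (6.06 to 31.2 CPM in STAT6-/-, 9.98 to 11.4 CPM in WT) overlapped. So did the neutrophil sums (7.52 to 73.8 CPM in STAT6-/-, 2.42 to 26.3 CPM in WT). No goblet, fibroblast, macrophage or B and plasma cell marker passed. The part of these differences in the results was not tested, and in bulk tissue fewer cells of a type and less RNA per cell cannot be told apart.

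The translation factor genes split in both directions. Among the 59 tested, 8 rose and 13 fell in the STAT6-/- colons (adjusted p below 0.05 over 15066 genes), or 35.6%, where 22.9% of all tested genes passed, 11.4% upward and 11.5% downward. The scaffold genes Eif4g1 and Eif4g3, the cap-binding eIF3 subunit gene Eif3d and the exchange factor gene Eif2b2 were among those that rose. The eIF3 subunit genes Eif3e, Eif3m, Eif3k, Eif3i and Eif3h, the eIF2 subunit gene Eif2s2, the elongation factor gene Eef1b2 and the helicase gene Eif4a2 were among those that fell. The median log2 fold change of the 59 genes was -0.07, beside 0.01 for all tested genes. In 35 of the 59 the CPM of the groups did not overlap, or 59.3%, where 46.5% of all tested genes had no overlap. Together the 62 genes held 14340 ± 651 CPM in STAT6-/- and 18260 ± 787 CPM in WT. Without Eef1a1, the most abundant, the sums were 10520 ± 466 CPM in STAT6-/- and 12290 ± 799 CPM in WT. The 3 genes with too few counts to be tested were Eif4e1b, a cap-binding protein of oocytes, Eef1akmt3, a methyltransferase, and the readthrough gene Eef1akmt4-ece2, all below 1 CPM in every library.

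How many genes passed turned on individual libraries. When WT replicate 2 or 3 was left out, edgeR called 0 of these genes, although 21 and 23 of them had an unadjusted p under 0.05. Of the 21 called genes, 7 kept their call without WT replicate 1, 9 without STAT6-/- replicate 1, 19 without STAT6-/- replicate 3 and 21 without STAT6-/- replicate 2. Eif3e, Eif3m, Eif2a, Eef1b2, Eif3d and Eif4g1 kept their call in each of these 4 cases. Without STAT6-/- replicate 2, which stands apart, 11 of the genes were higher and 13 lower. Over all tested genes 2750 were then higher and 2440 lower, beside 1718 and 1731 in the main fit. All 21 kept their direction in each of the 19 alternative fits.

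**Figure D1:**
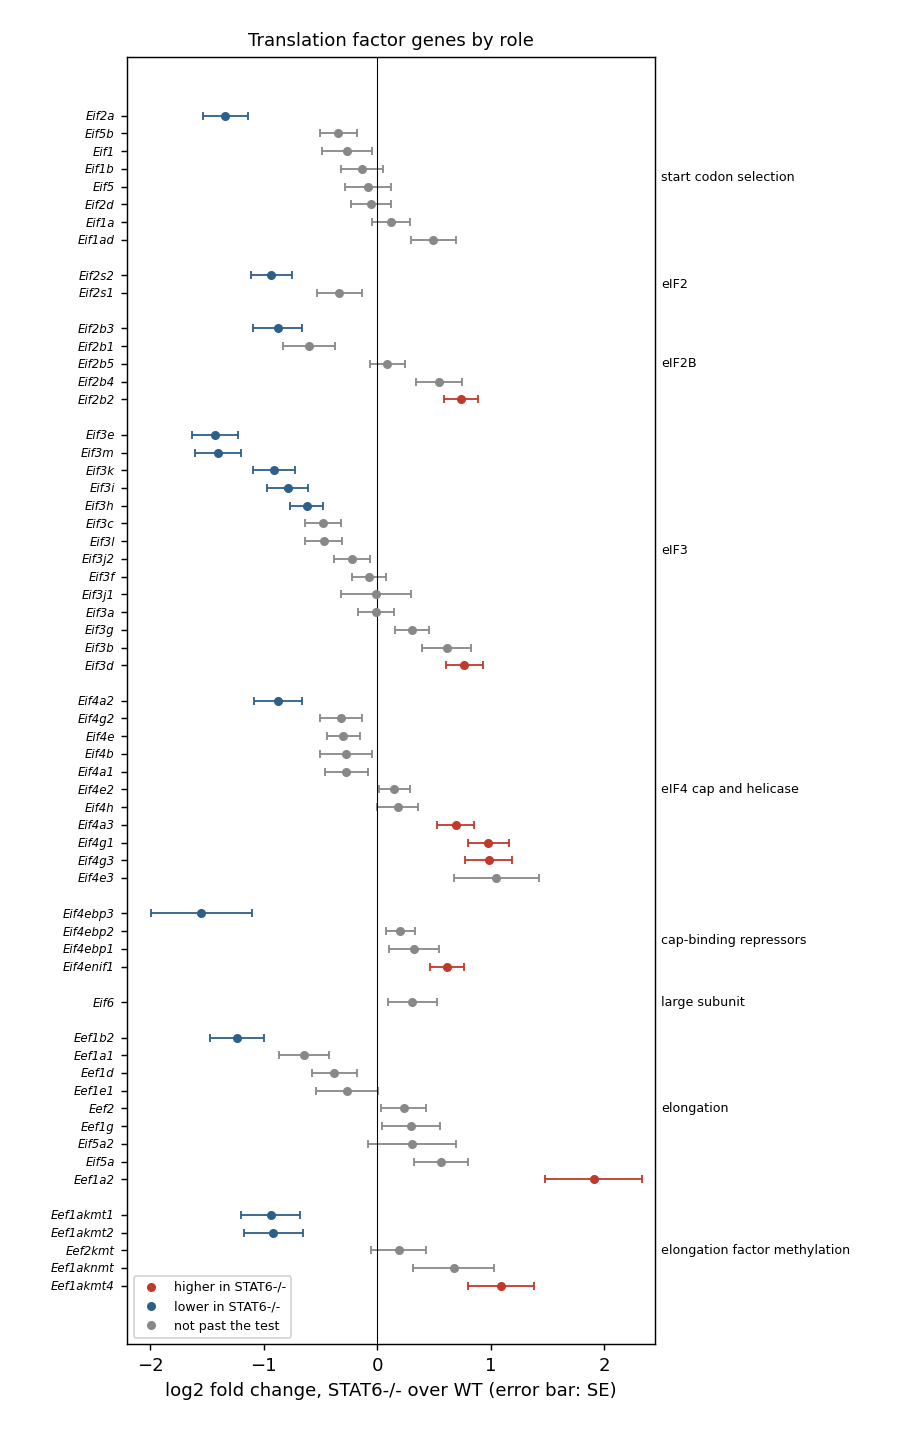
Log2 fold changes (STAT6-/- over WT, x axis) of the 59 tested translation factor genes, grouped by role, with bars of 1 SE; red genes rose, blue genes fell and grey genes did not pass the test. Most role groups hold genes on both sides of 0, from Eif4ebp3 at -1.55 to Eef1a2 at 1.91.

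In the eIF4 group, which binds the cap and unwinds the leader of the mRNA, 3 of 11 tested genes rose, Eif4g1, Eif4g3 and Eif4a3, and 1 fell, Eif4a2. Together this is 36.4%, beside 22.9% of all tested genes. Eif4g1 (chromosome 16, 20672720 to 20692883, mm10) encodes the main scaffold that joins eIF4E, eIF4A and eIF3. It stood at 468, 374 and 412 CPM in the STAT6-/- libraries and 242, 211 and 183 CPM in the WT libraries. Every STAT6-/- value lay above every WT value, and the gene rose 1.97-fold (log2 fold change 0.98 ± 0.18, adjusted p = 0.0167). Eif4g3 (chromosome 4, 137991779 to 138207086) encodes the second scaffold, eIF4GII. Its level was 123, 97.8 and 162 CPM in the STAT6-/- libraries and 70.3, 62.0 and 61.8 CPM in the WT libraries, again without overlap, a 1.98-fold rise (0.98 ± 0.21, adjusted p = 0.0213). Eif4g2, the related protein DAP5 that lacks the eIF4E-binding part, was the most abundant of the 3 per length in WT, at 130.5 ± 3.81 FPKM in STAT6-/- and 156 ± 2.46 FPKM in WT, and did not follow. It stood at 929.6, 1006 and 1091 CPM in the STAT6-/- libraries and 1245, 1349 and 1174 CPM in the WT libraries, lower in each STAT6-/- library than in any WT library, with a log2 fold change of -0.32 ± 0.19 that did not pass (adjusted p = 0.242). Measured per length, in FPKM, Eif4g1 made up 38.1%, 32.1% and 31.2% of the summed level of the 3 genes in the STAT6-/- libraries and 20.5%, 17.4% and 17.3% in the WT libraries.

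The helicase genes diverged. Eif4a1, the main eIF4A of dividing cells and the most abundant gene of the eIF4 group per length at 229 ± 49.9 FPKM in STAT6-/- and 262 ± 16.2 FPKM in WT, stood at 495, 372 and 401 CPM in the STAT6-/- libraries and 520.2, 561 and 449 CPM in the WT libraries. The groups overlapped, and its log2 fold change was -0.27 ± 0.19 (adjusted p = 0.325). Its paralog Eif4a2 (chromosome 16, 23107468 to 23114132) stood at 267, 342 and 242 CPM in the STAT6-/- libraries and 439, 518 and 601 CPM in the WT libraries, with all STAT6-/- values below all WT values, and fell 1.83-fold (-0.87 ± 0.21, adjusted p = 0.0299). Eif4a2 made up 27.1%, 39.6% and 29.2% of the summed FPKM of the pair in the STAT6-/- libraries and 38.3%, 41.0% and 50.1% in the WT libraries, ranges that overlap because of STAT6-/- replicate 2. Eif4a3, a relative that works in the exon junction complex on spliced mRNA rather than in cap binding, had 82.8, 68.1 and 65.3 CPM in the STAT6-/- libraries and 48.9, 47.2 and 37.6 CPM in the WT libraries and rose 1.62-fold (0.69 ± 0.16, adjusted p = 0.028). The cap-binding gene Eif4e, at 68.1 ± 8.41 CPM in STAT6-/- and 83.7 ± 5.20 CPM in WT, had a log2 fold change of -0.30 ± 0.14 (adjusted p = 0.164). The helicase cofactor genes Eif4b and Eif4h, and Eif4e2, a cap-binding protein that represses translation, did not pass either, with log2 fold changes from -0.27 to 0.18. Eif4e3, the most divergent cap-binding member, had 24.8, 10.5 and 30.1 CPM in the STAT6-/- libraries and 11.5, 10.4 and 9.76 CPM in the WT libraries: STAT6-/- replicates 1 and 3 were high and replicate 2 lay within the WT range (log2 fold change 1.05 ± 0.38, adjusted p = 0.0827).

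The 250 bases before the annotated start were searched for 6 short motifs on both strands, in the RefSeq promoters of build GRCm38.p6 that match 46 of the 62 genes. The letters TTC and GAA with 4 bases between them, the spacing that STAT6 prefers, occurred before Eef2, Eif4b and Eif4g3, which is 6.52% of the 46, beside 5.59% of 11852 tested genes with a promoter and 5.85% of all 32851 promoters. The E-box CACGTG, which MYC and related factors bind, occurred before 13 genes, or 28.3%, beside 9.39% of the tested genes and 6.02% of all promoters. Of the 12 tested genes with an E-box, 2 rose (Eif4g1 and Eef1akmt4), 1 fell (Eif3k) and 9 did not pass. A match is a description of letters and not a bound site. The windows below are those of called genes that hold either motif, read on the strand of the gene, with the motif in capitals.
Eif4g3, chr4:137993260-137993319, plus strand: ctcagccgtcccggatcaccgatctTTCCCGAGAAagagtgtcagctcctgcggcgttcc
Eif4g1, chr16:20672648-20672707, plus strand: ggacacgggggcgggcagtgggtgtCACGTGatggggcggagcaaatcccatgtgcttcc
Eef1akmt4, chr16:20611484-20611543, plus strand: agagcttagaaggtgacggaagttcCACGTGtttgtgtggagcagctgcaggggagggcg
Eif3k, chr7:28981898-28981957, minus strand: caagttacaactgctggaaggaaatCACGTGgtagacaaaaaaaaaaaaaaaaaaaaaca
The STAT6-type letters began 170 bases before an annotated start of Eif4g3, and the E-box 54 bases before the start of Eif4g1, 92 before Eef1akmt4 and 44 before Eif3k. Of the other motifs, TTC and GAA with 3 bases between them occurred before 8.70% of the genes (7.31% of tested genes and 7.02% of all promoters), the interferon response-type pair of GAAA with 2 bases between the copies before 4.35% (3.38% and 2.98%), the ETS-type TTCCGG before 34.8% (23.0% of tested genes) and CCAAT before 34.8% (39.8% and 33.8%).

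Among the repressors of cap binding, 1 of 4 rose and 1 fell, where 22.9% of all tested genes passed. The 4E-BP proteins hold eIF4E away from eIF4G until mTOR phosphorylates them. Eif4ebp3 (chromosome 18, 36664060 to 36666324) was the most abundant of the 3 per length by the mean of each genotype, though the lowest of them in STAT6-/- replicate 3, and stood at 108, 125 and 35.9 CPM in the STAT6-/- libraries and 223, 325 and 237 CPM in the WT libraries. All STAT6-/- values lay below all WT values, but STAT6-/- replicate 3 lay far below the other STAT6-/- libraries, and the 2.93-fold fall passed narrowly (log2 fold change -1.55 ± 0.44, adjusted p = 0.0466). The call of Eif4ebp3 was kept in 10 of 19 alternative fits. Eif4ebp1, at 32.4, 22.1 and 37.5 CPM in the STAT6-/- libraries and 21.4, 27.1 and 25.1 CPM in the WT libraries, overlapped between the groups (0.32 ± 0.22, adjusted p = 0.31). Eif4ebp2, at 52.8, 59.9 and 60.5 CPM in the STAT6-/- libraries and 51.6, 52.6 and 46.1 CPM in the WT libraries, was slightly higher in each STAT6-/- library and did not pass (0.20 ± 0.13, adjusted p = 0.273). Of the summed FPKM of the 3 genes, Eif4ebp3 held 59.9%, 66.0% and 30.2% in the STAT6-/- libraries and 79.3%, 83.2% and 80.1% in the WT libraries. Eif4enif1, the transporter 4E-T that carries eIF4E into the nucleus and into repressed mRNA particles, had 46.4, 40.0 and 52.2 CPM in the STAT6-/- libraries and 32.4, 28.5 and 29.4 CPM in the WT libraries and rose 1.53-fold (0.62 ± 0.15, adjusted p = 0.0301).

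**Figure D2:**
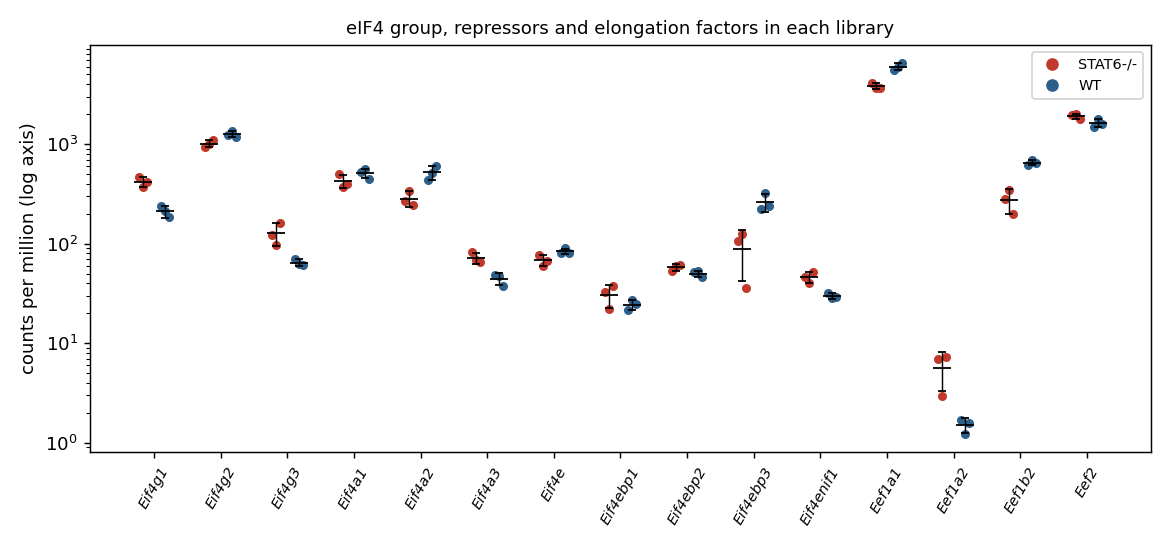
CPM (log axis) of the eIF4 scaffold, helicase and cap-binding genes, their repressors and the main elongation factors in each library, STAT6-/- in red and WT in blue, with the mean and SD of 3 libraries. Eif4g1 and Eif4g3 lie higher in STAT6-/-, Eif4a2, Eif4ebp3 and Eef1b2 lower, and Eif4a1 and Eif4ebp1 overlap.

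Of the 14 eIF3 genes, 5 fell and 1 rose, or 42.9% beside 22.9% of all tested genes, and the median log2 fold change was -0.34. In mammals 8 subunits (a, c, e, f, h, k, l and m) form the body of the complex, b, g and i form a module near the mRNA channel, d sits at its exit and j is loosely attached. Eif3e (chromosome 15, 43250040 to 43282736) encodes a body subunit that contacts eIF4G. It stood at 148, 125 and 119 CPM in the STAT6-/- libraries and 277, 412 and 368 CPM in the WT libraries, so that the highest STAT6-/- value was well below the lowest WT value, a 2.69-fold fall (log2 fold change -1.43 ± 0.20, adjusted p = 0.011). Eif3m (chromosome 2, 104999656 to 105017027), its neighbour in the body, had 102, 99.6 and 74.6 CPM in the STAT6-/- libraries and 199, 280.1 and 252 CPM in the WT libraries and fell 2.65-fold (-1.40 ± 0.20, adjusted p = 0.0112). These 2 genes had the lowest adjusted p of all the translation factor genes. Eif3k, the smallest body subunit and per length the most abundant eIF3 gene over all libraries, stood at 105, 127 and 87.9 CPM in the STAT6-/- libraries and 176, 212 and 213 CPM in the WT libraries and fell 1.88-fold (-0.91 ± 0.19, adjusted p = 0.0206). Eif3h, also a body subunit, had 157, 159 and 159.5 CPM in the STAT6-/- libraries and 225, 261 and 245 CPM in the WT libraries, with STAT6-/- values close to one another, and fell 1.54-fold (-0.62 ± 0.14, adjusted p = 0.0268). The WD-repeat subunit gene Eif3i stood at 123, 147 and 102 CPM in the STAT6-/- libraries and 209, 231 and 202 CPM in the WT libraries and fell 1.73-fold (-0.79 ± 0.18, adjusted p = 0.0265).

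Eif3d (chromosome 15, 77958998 to 77970824), which can bind the cap of selected mRNAs itself, went the other way. It stood at 115, 92.6 and 89.8 CPM in the STAT6-/- libraries and 66.4, 55.3 and 53.3 CPM in the WT libraries, without overlap, a 1.70-fold rise (0.77 ± 0.16, adjusted p = 0.0218). Eif3b, the scaffold of the channel module, had 205, 138 and 164 CPM in the STAT6-/- libraries and 133, 107 and 91.9 CPM in the WT libraries, higher in each STAT6-/- library, and did not pass (0.61 ± 0.21, adjusted p = 0.077). Its partner Eif3g was also without overlap and did not pass (0.31 ± 0.15, adjusted p = 0.162). The largest subunit gene Eif3a stood at 226, 202 and 188 CPM in the STAT6-/- libraries and 218, 189.8 and 212 CPM in the WT libraries. It had a log2 fold change of -0.01 ± 0.15, and Eif3f one of -0.07 ± 0.15, with overlapping groups in both. Eif3c and Eif3l were lower in each STAT6-/- library at -0.47 and -0.47 (adjusted p = 0.0692 and 0.0765). Eif3j1 and Eif3j2 are near-identical copies, so that the split of reads between them is uncertain, and their log2 fold changes were -0.01 and -0.22.

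Shares within a library do not depend on scaling between libraries. Eif3e held 8.89%, 7.65% and 8.29% of the summed FPKM of the eIF3 genes in the STAT6-/- libraries and 12.5%, 15.8% and 15.3% in the WT libraries, and Eif3m 7.73%, 7.68% and 6.55% in STAT6-/- against 11.4%, 13.5% and 13.2% in WT. Eif3d held 5.56%, 4.55% and 5.02% in STAT6-/- and 2.41%, 1.70% and 1.78% in WT. Eif3b held 6.33%, 4.34% and 5.85% in STAT6-/- and 3.09%, 2.10% and 1.96% in WT. The groups did not overlap in any of these 4 shares, nor in those of Eif3a, Eif3f, Eif3g, Eif3j2 and Eif3k, while those of the remaining eIF3 genes overlapped. Eif3f averaged 12.04% in STAT6-/- and 8.25% in WT, and Eif3a 3.81% and 2.53%, although the CPM of both overlapped. A share depends on the other genes of the sum as well. Ordered by mean FPKM share, the highest genes in STAT6-/- were Eif3h, Eif3k and Eif3f at 12.5%, 12.2% and 12.04%, which lay within 1 SD of one another. In WT they were Eif3k at 15.1% ± 0.867 and Eif3e at 14.5% ± 1.76, which also did not differ beyond their spread, and then Eif3m at 12.7% ± 1.16 and Eif3h at 12.5% ± 0.116.

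**Figure D3:**
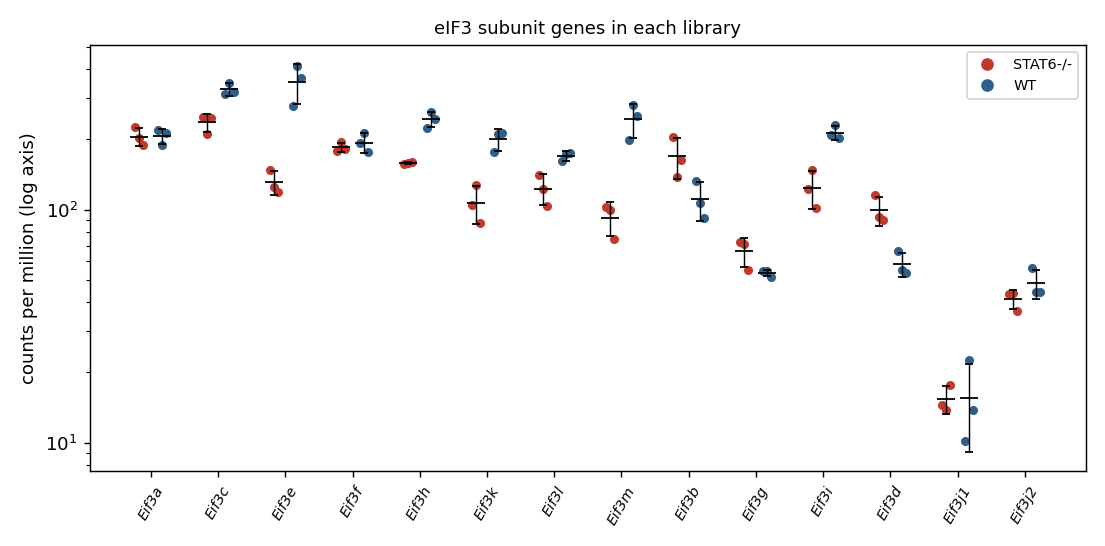
CPM (log axis) of the 14 eIF3 subunit genes in each library, STAT6-/- in red and WT in blue, with the mean and SD of 3 libraries, ordered as body subunits, channel module, Eif3d and Eif3j. Eif3e and Eif3m show the widest gap below WT, Eif3d lies above WT and Eif3a overlaps.

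The genes of the eIF2 cycle also split. Eif2s2 (chromosome 2, 154871410 to 154892906) encodes the beta subunit of eIF2, which contacts the exchange factor, and had the highest FPKM of the initiation factor genes averaged over both genotypes, at 278 ± 15.2 FPKM in STAT6-/- and 506 ± 21.0 FPKM in WT. It stood at 676, 702 and 685 CPM in the STAT6-/- libraries and 1249, 1449 and 1240.0 CPM in the WT libraries. The STAT6-/- values were close together and all below WT, a 1.91-fold fall (log2 fold change -0.93 ± 0.18, adjusted p = 0.018). Eif2s1, the alpha subunit whose phosphorylation slows initiation under stress, had 76.7, 48.0 and 54.8 CPM in the STAT6-/- libraries and 69.8, 84.0 and 72.3 CPM in the WT libraries, with overlap (-0.33 ± 0.20, adjusted p = 0.249). Of the 5 eIF2B genes, which encode the exchange factor that this phosphorylation blocks, Eif2b2 rose and Eif2b3 fell, or 40.0% beside 22.9% of all tested genes. Eif2b2, of the regulatory core, had 48.0, 41.0 and 44.2 CPM in the STAT6-/- libraries and 28.7, 27.7 and 23.3 CPM in the WT libraries, a 1.67-fold rise (0.74 ± 0.15, adjusted p = 0.019). Eif2b3, of the catalytic arm, had 13.1, 10.1 and 13.4 CPM in the STAT6-/- libraries and 21.9, 27.0 and 18.5 CPM in the WT libraries, a 1.84-fold fall (-0.88 ± 0.22, adjusted p = 0.0313). Eif2b4 was higher and Eif2b1 lower in each STAT6-/- library, with log2 fold changes of 0.55 and -0.60 that did not pass (adjusted p = 0.0887 and 0.0967), and Eif2b5, the catalytic subunit, stood at 0.09.

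Of the 8 genes that act around the start codon, 1 fell and none rose, or 12.5% beside 22.9% of all tested genes. Eif2a (chromosome 3, 58525821 to 58557501), a separate single-chain factor that can deliver initiator tRNA and favours some non-AUG starts, stood at 43.2, 48.2 and 34.0 CPM in the STAT6-/- libraries and 83.8, 111 and 121 CPM in the WT libraries. The highest STAT6-/- value was well below the lowest WT value, a 2.52-fold fall (-1.34 ± 0.20, adjusted p = 0.0118). Eif1, the gatekeeper of start codon choice and the most abundant of the 8 at 320.0 ± 39.8 FPKM in STAT6-/- and 366 ± 57.9 FPKM in WT, overlapped between the groups (-0.27 ± 0.22, adjusted p = 0.391), as did its paralog Eif1b (-0.14 ± 0.18, adjusted p = 0.606). The GTPase-activating factor Eif5, the subunit-joining factor Eif5b, Eif1a and Eif2d did not pass, with log2 fold changes from -0.34 to 0.12, and neither did Eif1ad, a relative of eIF1A (0.49, adjusted p = 0.109). Eif6, which keeps the subunits apart until the large subunit is mature, had 259, 256 and 348 CPM in the STAT6-/- libraries and 237, 271 and 188 CPM in the WT libraries and a log2 fold change of 0.31 ± 0.21 (adjusted p = 0.308).

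Of the 9 elongation genes, 1 rose and 1 fell, or 22.2% beside 22.9% of all tested genes. Eef1a1 (chromosome 9, 78478453 to 78481724), which delivers aminoacyl-tRNA to the ribosome, was by far the most abundant of all the translation factor genes, at 2186 ± 289 FPKM in STAT6-/- and 3270.0 ± 401 FPKM in WT. It stood at 4106, 3686 and 3663 CPM in the STAT6-/- libraries and 5535, 5882 and 6498 CPM in the WT libraries, lower in each STAT6-/- library than in any WT library, with a log2 fold change of -0.65 ± 0.22 that did not pass (adjusted p = 0.0735). Its counts were 27.5%, 25.6% and 26.8% of those of the 62 genes in the STAT6-/- libraries and 31.6%, 30.8% and 35.7% in the WT libraries. Eef1a2 (chromosome 2, 181141758 to 181157015), the form of neurons and striated muscle, had 6.95, 2.92 and 7.25 CPM in the STAT6-/- libraries and 1.72, 1.24 and 1.59 CPM in the WT libraries. It rose 3.75-fold (1.91 ± 0.43, adjusted p = 0.0246) at a low level, and STAT6-/- replicate 2 lay well below the other STAT6-/- libraries. It made up 0.143%, 0.0672% and 0.167% of the summed FPKM of the pair in the STAT6-/- libraries and 0.0263%, 0.0178% and 0.0206% in the WT libraries. The summed level of 6 markers of enteric nerve and glia was 33.7, 13.5 and 55.0 CPM in the STAT6-/- libraries and 22.9, 24.7 and 23.0 CPM in the WT libraries, with 1 of 6 higher and 1 lower, and the part of these cells in the level of Eef1a2 was not tested.

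The eEF1B complex reloads eEF1A with GTP. Its exchange subunit gene Eef1b2 (chromosome 1, 63176831 to 63180486) stood at 279, 349 and 198 CPM in the STAT6-/- libraries and 614, 689.9 and 642 CPM in the WT libraries, so that the groups were far apart, a 2.36-fold fall (-1.24 ± 0.24, adjusted p = 0.0177). The other exchange subunit gene Eef1d was lower in each STAT6-/- library without passing (-0.38 ± 0.20, adjusted p = 0.197). The structural subunit gene Eef1g had 456, 399.6 and 269.9 CPM in the STAT6-/- libraries and 373, 289 and 252 CPM in the WT libraries, with overlap (0.30 ± 0.25, adjusted p = 0.404). Eef2, the translocase, stood at 1950.0, 1990.0 and 1785 CPM in the STAT6-/- libraries and 1485, 1784 and 1596 CPM in the WT libraries, slightly higher in each STAT6-/- library, with a log2 fold change of 0.23 ± 0.20 (adjusted p = 0.4). Eif5a, which needs the rare amino acid hypusine and helps ribosomes through difficult peptide bonds, had 537, 508 and 376 CPM in the STAT6-/- libraries and 405, 299.5 and 261 CPM in the WT libraries (0.56 ± 0.24, adjusted p = 0.125). Eif5a2 and Eef1e1, an auxiliary protein of the aminoacyl-tRNA synthetase complex, had log2 fold changes of 0.31 and -0.26.

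Of the 5 tested enzymes that methylate lysines or the first residue of elongation factors, 1 rose and 2 fell, all at low levels. Over all tested genes 22.9% passed. Eef1akmt4 had 11.5, 8.46 and 6.51 CPM in the STAT6-/- libraries and 4.26, 4.41 and 3.80 CPM in the WT libraries, a 2.12-fold rise (1.09 ± 0.29, adjusted p = 0.0381). Eef1akmt1 had 13.0, 13.3 and 8.30 CPM in the STAT6-/- libraries and 21.1, 27.3 and 18.1 CPM in the WT libraries, a 1.92-fold fall (-0.94 ± 0.26, adjusted p = 0.042), and Eef1akmt2 had 10.8, 11.8 and 6.45 CPM in the STAT6-/- libraries and 18.6, 18.6 and 17.6 CPM in the WT libraries, a 1.89-fold fall (-0.92 ± 0.26, adjusted p = 0.044). The calls of Eef1akmt4, Eef1akmt1 and Eef1akmt2 were kept in 14, 10 and 9 of 19 alternative fits. Eef1aknmt and Eef2kmt did not pass, at 0.67 and 0.19. Eef1akmt4 overlaps the readthrough gene Eef1akmt4-ece2, so that reads may be split between them.

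The deposited values are given per transcript, which shows how the counts of a gene are divided among its RefSeq transcripts. In 3 genes the share of a transcript differed by at least 10 percentage points with no overlap between the groups. No transcript met both conditions in Eef1d, Eif4e2, Eif4enif1, Eif4g1, Eif5 and Eif5a, the other genes with several transcripts of at least 10% of the counts. How often such a difference occurs over all genes was not computed, so the 3 genes cannot be called unusual. Each of the 3 gave p = 0.1 when library labels were permuted exactly (two-sided). A design of 3 and 3 libraries cannot reach a lower p, so none of them can pass. In Eif4a2 the transcript NM_013506 held 34.3%, 41.3% and 16.8% of the counts in the STAT6-/- libraries and 55.8%, 67.1% and 69.4% in the WT libraries. NM_001123038 of the same gene held 52.8%, 42.1% and 59.5% in STAT6-/- and 32.3%, 21.7% and 23.4% in WT. In counts, NM_013506 had 1962, 2703 and 768 in the STAT6-/- libraries and 4140, 5607 and 7360 in the WT libraries, while NM_001123038 had 3018, 2754 and 2729 in STAT6-/- and 2395, 1809 and 2478 in WT. The lower total of Eif4a2 in STAT6-/- thus lay in the first transcript. In Eif4h, whose gene total did not pass, NM_033561 held 56.5%, 58.0% and 70.5% in STAT6-/- and 52.4%, 51.0% and 49.0% in WT, at the expense of its only other transcript NM_001312867. In Eif4g3 the transcript NM_172703 held 0%, 17.03% and 36.3% in STAT6-/- and 37.2%, 42.4% and 48.2% in WT. The spread within STAT6-/- was wide there, and short reads divide counts between similar transcripts by estimation only.

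**Figure D4:**
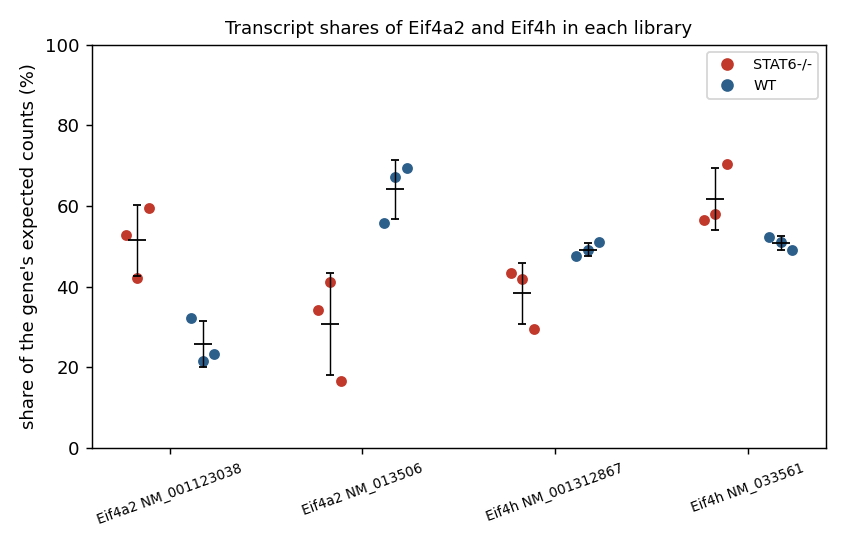
Share of the expected counts of Eif4a2 and of Eif4h (y axis, percent) that 2 RefSeq transcripts of each gene held in each library, STAT6-/- in red and WT in blue, with the mean and SD of 3 libraries. NM_013506 of Eif4a2 averaged 30.8% in STAT6-/- and 64.1% in WT.

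The called genes differed in base composition, a property that the rule did not use. The transcripts of the 8 genes that rose had a median GC content of 54.2% (50.03% to 60.6%), those of the 13 that fell 46.2% (40.3% to 54.2%) and those of the 38 others 50.2%. The median transcript length was 1992 bases for the genes that rose, 1295 bases for those that fell and 2514 bases for the others. Across the 59 genes the log2 fold change and the GC content had a Spearman correlation of 0.492, and across 14853 tested genes one of 0.274. Genes within a library share its depth and its GC bias and are not independent replicates. The transcriptome as a whole showed the same split, with a median GC content of 53.9% among 1700 genes that rose and 46.0% among 1715 that fell. After a correction for GC content and transcript length in each library, 6 of the 59 genes were higher and 9 lower. Over all tested genes the main fit gave 1718 higher and 1731 lower, and the corrected fit 1071 and 1111. Eif3e then stood at -0.87 (adjusted p = 0.0269), Eif3m at -0.95 (0.0198), Eif2a at -1.09 (0.0178), Eef1b2 at -1.05 (0.025) and Eif3d at 0.59 (0.0394). The adjusted p of Eif4g1 was 0.0523 at a log2 fold change of 0.67, and 6 other calls were lost. Of these, Eif4ebp3 stood at -1.33, Eif3h at -0.49, Eif4enif1 at 0.47, Eif4a2 at -0.55, Eef1akmt1 at -0.67 and Eef1akmt2 at -0.34 (adjusted p from 0.0545 to 0.26). Eif3c, not called in the main fit, passed after the correction at -0.60 (adjusted p = 0.038), 1 of the 2 among 19 alternative fits that called it.

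**Figure D5:**
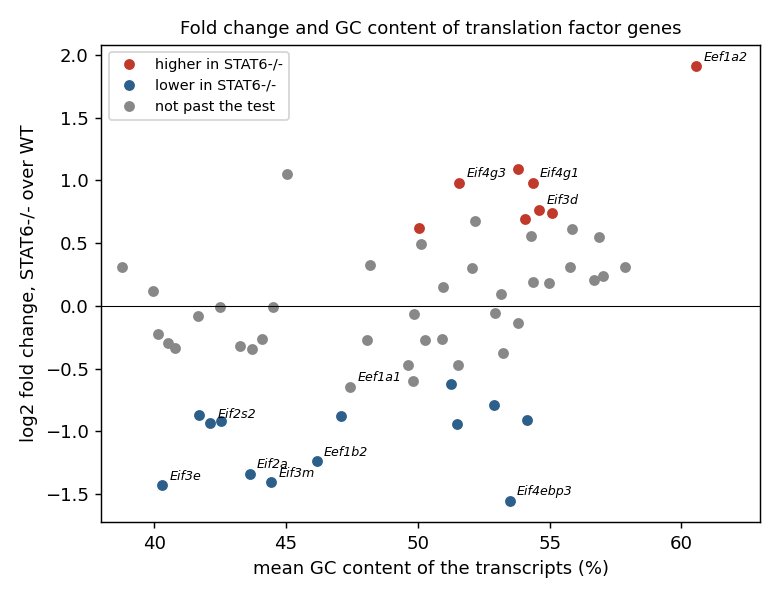
Log2 fold change (STAT6-/- over WT, y axis) against the mean GC content of the transcripts (x axis, percent) for the 59 tested translation factor genes; red genes rose, blue genes fell and grey genes did not pass. The genes that rose lie at 50.03% GC and above, and the lower left holds Eif3e, Eif3m, Eif2a and Eef1b2.

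Other parts of the translation apparatus are given beside these genes by counts and medians, without a test of the difference. Of 68 autosomal ribosomal protein genes 56 fell and 0 rose at an adjusted p below 0.05 by edgeR, or 82.4% beside 22.9% of all tested genes. An unadjusted edgeR p under 0.05 was seen for 61, and the median log2 fold change was -1.20. The name filter against -like copies also took Rpl3, Rpl4, Rpl5, Rpl6, Rpl7, Rpl8 and Rpl9 out of this list, so these values do not cover them. Rpl37a fell 3.07-fold (-1.62 ± 0.22, adjusted p = 0.0103) and Rps25 2.79-fold (-1.48 ± 0.20, adjusted p = 0.0103). After the correction for GC content and length the median was -0.87, and Rpl37a stood at -0.94 (adjusted p = 0.0175). Of 20 cytosolic aminoacyl-tRNA synthetase genes, which load amino acids onto tRNA, 9 rose and 1 fell, where 22.9% of all tested genes passed. Their median log2 fold change was 0.55, and 0.42 after the correction for GC content and length. The higher calls of Aars, Mars1 and Vars were lost after that correction (adjusted p = 0.0669, 0.111 and 0.0601), and the others were kept. Wars, the tryptophan enzyme that interferon induces, rose 4.29-fold (2.10 ± 0.36, adjusted p = 0.015), and Lars fell 1.70-fold (-0.76 ± 0.13, adjusted p = 0.0143). Of 10 mitochondrial translation factor genes 2 rose and 1 fell, again beside 22.9% of all tested genes. Their median log2 fold change was -0.29, and -0.08 after the correction for GC content and length, which kept these calls. The elongation factor gene Tsfm rose 2.48-fold (1.31 ± 0.31, adjusted p = 0.0271) and the ribosome recycling gene Mrrf fell 2.43-fold (-1.28 ± 0.22, adjusted p = 0.0149).

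Of 23 regulators of translation, 6 rose and 1 fell, or 30.4% beside 22.9% of all tested genes. Their median log2 fold change was 0.35. Of the 4 eIF2 alpha kinase genes, Eif2ak1 and Eif2ak4 had log2 fold changes of -0.04 and 0.13 (adjusted p = 0.856 and 0.614), and the others rose: Eif2ak2, the double-stranded RNA sensor PKR, stood at 132 ± 18.5 CPM in STAT6-/- and 67.3 ± 3.91 CPM in WT (0.97 ± 0.15, adjusted p = 0.0129), and Eif2ak3, the endoplasmic reticulum stress kinase PERK, at 50.5 ± 5.81 CPM in STAT6-/- and 27.3 ± 2.83 CPM in WT (0.89 ± 0.15, adjusted p = 0.0147). Larp1, which binds the mRNAs of ribosomal proteins downstream of mTOR, rose 1.81-fold (0.86 ± 0.16, adjusted p = 0.0161), and Mtor and its partner Rptor rose by 0.53 and 0.53 on the log2 scale (adjusted p = 0.0454 and 0.0343). Paip2, an inhibitor of the poly(A)-binding protein, fell 1.82-fold (-0.86 ± 0.16, adjusted p = 0.0157). These 4 calls were lost after the correction for GC content and length, with Larp1 at 0.60, Mtor at 0.25, Rptor at 0.18 and Paip2 at -0.35 (adjusted p = 0.0723, 0.224, 0.383 and 0.0934). Of 16 targets of the integrated stress response, which eIF2 alpha phosphorylation starts, 3 rose and 1 fell, or 25% beside the 22.9% of all tested genes, with a median of 0.45. The transcription factor gene Atf5 fell (-0.72 ± 0.15, adjusted p = 0.021) and the serine synthesis gene Phgdh rose (2.15 ± 0.51, adjusted p = 0.0291). Of 8 genes of termination, recycling and reinitiation 1 rose, or 12.5% beside the 22.9%. It was Abcf1, a ribosome-associated ATPase (0.57 ± 0.15, adjusted p = 0.0402). This call was lost after the correction for GC content and length (0.22, adjusted p = 0.339). The release factor gene Etf1 had a log2 fold change of 0.28 ± 0.16 (adjusted p = 0.222).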

How the data were processed

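Colon RNA was sequenced in 3 STAT6-/- and 3 WT libraries. The deposited expected counts are the authors' estimated reads per RefSeq transcript, not normalized between libraries, and the FPKM column, also the authors' and per the file headers, adjusts for the length of a transcript and the fragments of a library. The submitters' processing notes name Bowtie2 2.2.5, RSEM 1.2.12 and the build mm10. The lowest FPKM listed was 0.01, and transcripts not listed for a library were taken as 0. Gene symbols for 27986 of the 28238 transcripts came from a RefSeq table (GRCm38.p6, which is mm10) and for 149 from GENCODE M21, whose transcripts also gave GC content and length; 103, with 0.167% of the counts, stayed unnamed.

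Counts were summed per gene, rounded and fitted with edgeR 4.0.16 (R 4.3.3): quasi-likelihood F test, TMM, filterByExpr, robust estimation, Benjamini-Hochberg adjusted p over 15066 genes with a threshold of 0.05. "Rose" and "fell" mean that a gene passed. SE is the log2 fold change over the square root of F. The common dispersion was 0.102. The fit was tested on simulated counts, with the common dispersion for every gene and 200 of 14939 genes changed. It recovered 11% of 2-fold and 89% of 4-fold changes, and 4 of its 104 calls were false. With the real counts the fit called 3449 genes, so these rates need not hold there. A gene that did not pass may still differ. Alternatives used DESeq2 1.42.0, limma 3.58.1 (voom, and log2 FPKM with 1 or 0.1 added), other scalings and filters, a replicate block, removal of GC and length trends, and each library left out. Figures were drawn with matplotlib 3.10.9.

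The members, gene lists and tests were chosen with earlier results of these data known, and the 6 promoter motifs after the values were seen. Full values are given for called genes, the most abundant gene per role and listed paralogs; other genes with values were chosen after these were seen.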

Additional observations from a re-analysis of the deposited data

How the results depend on the processing

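With 1 library left out, the members called ranged from 0 to 11 higher and from 0 to 13 lower, and all genes called from 12 to 2750 higher and from 6 to 2440 lower. Removing GC and length trends gave 1071 higher and 1111 lower genes, DESeq2 2713 higher and 2403 lower, and log2 FPKM with 0.1 added 8 lower members. The other settings kept both member counts within 1.5 times the main 8 and 13, and the factors and subunits alone gave 6 and 10. The median of the members stayed within the spread between libraries in every alternative fit, from -0.11 to -0.01, and was -0.14 over the factors and subunits alone. Without a low-count filter and with library size only, the calls of Eef1akmt1, Eef1akmt2 and Eif4ebp3 were lost. Whether the replicate numbers pair the libraries is not settled by their weak correlations. Deviations of same-numbered libraries correlated at 0.023, 0.0445 and 0.134, and those of the other pairs from -0.109 to 0.0544. Not every library correlated best with its own number. A fit with the replicate block called 6 members higher and 9 lower (1219 and 1445 genes). The named transcript shares changed by less than their spread when FPKM replaced counts. The cause of these changes was not tested. With 17122315 to 19555450 counts per library, 3 counts are 0.153 to 0.175 CPM, a limit from counting error only.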

Other observations

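The initiation factor genes on the sex chromosomes were left out by the rule, and for them too genotype and sex cannot be told apart. Eif2s3x, the X-linked gene of the gamma subunit of eIF2, stood at 130.5, 129.5 and 98.7 CPM in the STAT6-/- libraries and 247, 282 and 281 CPM in the WT libraries (log2 fold change -1.17 ± 0.18, edgeR adjusted p = 0.0118). Its Y-linked copy Eif2s3y stood at 54.0, 56.8 and 65.8 CPM in the STAT6-/- libraries and had 0 counts in each WT library, which allows up to 0.172 to 0.175 CPM before TMM scaling. Reads shared between these copies may be divided by estimation. Eif1ax, the X-linked gene of eIF1A, stood at 46.9, 43.6 and 36.5 CPM in the STAT6-/- libraries and 74.4, 77.5 and 84.5 CPM in the WT libraries (-0.90 ± 0.14, adjusted p = 0.0131), while the autosomal Eif1a had 119, 83.6 and 102 CPM in the STAT6-/- libraries and 96.1, 98.1 and 85.5 CPM in the WT libraries (0.12 ± 0.17, adjusted p = 0.614).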
